A study of Mus musculus with 12 samples.

Results

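Genes that mark mesothelial cells were examined in epididymal white adipose tissue (eWAT). The 8 genes are *Msln*, *Upk3b*, *Upk1b*, *Wt1*, *Lrrn4*, *Krt19*, *Krt8* and *Krt18*. They were chosen by their symbols, from a list of textbook markers, out of 23188 genes whose transcripts were summed, and all 8 were found. Male C57BL/6J mice, aged 21 weeks, had received a normal diet (ND), a high-fat diet (HFD), HFD with 1.5% (w/w) of an ethanol extract of chrysanthemum leaves (CLE) or HFD with 0.003% luteolin (LU), a flavonoid. The diets lasted 16 weeks and the mice were housed singly. The CLE and LU groups thus received HFD as well. RNA of whole tissue from 3 mice per group gave 12 libraries, which the study describes as representative of their groups without stating how they were chosen. The values are FPKM (fragments per kilobase of transcript, scaled to the sequenced total), a level per length, and the depth behind them is unknown because no counts accompany them.

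The mesothelium is a single sheet of flattened cells that covers the organs and walls of the body cavities, among them the surface of visceral fat pads such as the epididymal pad. Its cells come from mesoderm, yet they carry simple keratins and form junctions as an epithelium does. They secrete a lubricating fluid, take part in repair, and can lose their junctions and take on a mesenchymal form. *Wt1* encodes a zinc-finger transcription factor of the embryonic and adult mesothelium that visceral fat progenitors also use. *Msln* encodes mesothelin, a glycoprotein anchored in the cell membrane, and *Lrrn4* a membrane protein with leucine-rich repeats. *Upk3b* and *Upk1b* belong to the uroplakins, membrane proteins best known from the bladder lining, and are also expressed in mesothelium. *Krt8*, *Krt18* and *Krt19* encode the intermediate filaments of simple epithelia, which mesothelial cells share with glandular and ductal cells, so these 3 genes mark mesothelium less strictly than the others.

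Positions are those of GENCODE in GRCm38. *Msln* is at chr17:25748613-25754378 (minus strand), *Upk3b* at chr5:136038496-136046487 (plus), *Upk1b* at chr16:38773184-38800328 (minus), *Wt1* at chr2:105126529-105173616 (plus), *Lrrn4* at chr2:132868305-132880891 (minus) and *Krt19* at chr11:100140810-100148665 (minus). *Krt8*, at chr15:101996698-102004482 (minus), and *Krt18*, at chr15:102028180-102032027 (plus), are neighbours whose starts are 23698 bases apart. Their products are partners, since keratin 8 and keratin 18 pair to build 1 filament. The exons of *Krt8* share 101 bases (5.16%) with the antisense long noncoding RNA *Gm36026*, and the strand of the reads is not stated, so reads there cannot be told apart.

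RefSeq promoter sequences (GRCm38.p6) matched 4 of the 8 genes. They are shown because *Upk3b* and *Lrrn4* followed one pattern between mice and *Krt8* with *Krt18* another. Each is the 250 bases before the start that RefSeq gives, written 5′ to 3′ on the strand of the gene. The RefSeq start equals the GENCODE start for *Upk3b* and lies further downstream for the others, so 29 bases of the *Lrrn4* window, 140 of that of *Krt8* and 36 of that of *Krt18* are inside the GENCODE gene. Capitals mark a match to CATTCC, the core letters bound by the TEAD family, on either strand.
*Upk3b* promoter, chr5:136038246-136038495, strand +: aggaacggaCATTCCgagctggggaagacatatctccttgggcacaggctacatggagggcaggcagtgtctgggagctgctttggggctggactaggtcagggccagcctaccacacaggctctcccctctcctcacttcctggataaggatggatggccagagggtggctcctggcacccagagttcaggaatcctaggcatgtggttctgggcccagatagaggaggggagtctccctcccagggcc
*Lrrn4* promoter, chr2:132880863-132881112, strand -: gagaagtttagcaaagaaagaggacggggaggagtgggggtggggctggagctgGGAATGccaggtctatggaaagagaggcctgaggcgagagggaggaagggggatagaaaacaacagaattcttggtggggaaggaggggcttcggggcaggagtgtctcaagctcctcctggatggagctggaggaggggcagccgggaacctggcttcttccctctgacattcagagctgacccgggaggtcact
*Krt8* promoter, chr15:102004343-102004592, strand -: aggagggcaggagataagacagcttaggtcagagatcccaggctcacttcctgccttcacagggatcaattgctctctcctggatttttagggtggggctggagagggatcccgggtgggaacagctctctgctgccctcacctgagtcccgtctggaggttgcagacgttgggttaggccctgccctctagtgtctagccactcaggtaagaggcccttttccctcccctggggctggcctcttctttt
*Krt18* promoter, chr15:102027966-102028215, strand +: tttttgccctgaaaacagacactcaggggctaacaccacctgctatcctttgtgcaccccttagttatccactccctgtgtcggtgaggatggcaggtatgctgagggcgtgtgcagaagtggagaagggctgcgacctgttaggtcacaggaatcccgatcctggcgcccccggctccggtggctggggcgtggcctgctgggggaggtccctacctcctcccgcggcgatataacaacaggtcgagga
CATTCC was found in *Upk3b*, 241 to 236 bases before the RefSeq start, and on the opposite strand in *Lrrn4*, 196 to 191 bases before the RefSeq start. It was found in 12.6% of 32851 promoters of the same length. GCGTGGGNG, the letters of the WT1 and EGR family (1.65% of promoters), TATAAA (12.4%) and GGGCGG of the SP family (32.7%) were not found in these 4 windows on either strand, and no motif searched was found in those of *Krt8* and *Krt18*. A match is a string of letters and was not examined as a binding site.

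All 8 genes were detected, at levels far below those of fat cell genes. The sum of the 8 ranged from 2.36 to 65.9 FPKM per library, against 17446 to 36695 FPKM for 10 adipocyte genes. *Upk3b* ranged from 0.0549 to 25.6 FPKM, and *Wt1*, with the smallest proportion between highest and lowest, from 1.35 to 5.13 FPKM. Of 35 other genes reported in mesothelium, 12 were too low for the test. Of these, 6 were highest in ND mouse 4, among them *Muc16* (2.52 FPKM), *Chst4* (2.38) and *Bnc1* (1.69). Another 5 were highest elsewhere, namely *Lrp2* (1.66) and *Cdh3* (0.498) in LU mouse 8, *Crabp2* (0.674) in CLE mouse 11, *Has1* (0.524) in HFD mouse 12 and *Sbspon* (0.120) in ND mouse 2. *Calb2*, which encodes calretinin, was listed at 0 in all 12 libraries. In whole tissue, fewer cells of a type and less RNA per cell cannot be told apart.

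The first question was whether the high-fat diet changed these genes. All 8 had lower estimates in HFD than in ND, and 5 of them fell: *Lrrn4*, *Krt19*, *Upk1b*, *Upk3b* and *Msln*. Tests were made in limma over the 12837 genes with at least 1 FPKM in at least 3 libraries. A call needed an adjusted p (Benjamini-Hochberg) below 0.05 and more than a 1.5-fold change, both on the scale of log2(FPKM + 1), where changes of low genes appear smaller than they are. Of all genes tested, 10.8% were called lower in HFD. All 8 genes passed the filter on low values, and it can be passed through high values in 1 group alone. *Upk1b*, *Krt19*, *Krt8* and *Krt18* reached 1 FPKM only in ND and LU libraries. *Msln* and *Lrrn4* reached it in CLE as well, but in no HFD library. For these genes the direction of a difference from the groups that passed the filter is not independent of it. The median log2 fold change of the 8 genes was -1.41, against -0.02 over all genes tested.

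*Lrrn4* showed the clearest fall. ND mice 2, 3 and 4 had 2.88, 4.13 and 7.84 FPKM, HFD mice 12, 15 and 18 had 0.870, 0.414 and 0.268, CLE mice 2, 4 and 11 had 2.60, 1.48 and 1.48, and LU mice 2, 3 and 8 had 2.50, 2.04 and 1.49. Every ND mouse lay above every HFD mouse, and the CLE and LU mice lay between the 2 groups without touching either. The mean was 4.95 ± 2.58 FPKM in ND and 0.517 ± 0.314 in HFD (SD, n = 3), a log2 fold change of -1.90 ± 0.27 (SE, limma, adjusted p = 0.000161). This call was the only one of the 8 to hold under each alternative in which the gene was tested.

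*Upk3b* had the highest mean of the 8 genes in ND, though not in ND mouse 2. It was found in ND mice 2, 3 and 4 with 1.47, 8.80 and 25.6 FPKM, HFD mice 12, 15 and 18 with 2.06, 0.488 and 0.0549, CLE mice 2, 4 and 11 with 4.66, 2.62 and 2.44, and LU mice 2, 3 and 8 with 6.71, 7.93 and 1.62. ND mouse 2 lay below HFD mouse 12, so the groups overlapped. The log2 fold change of HFD against ND was -2.36 ± 0.74 (SE, limma, adjusted p = 0.0199), the largest of the 8. Most of its level, 87.2%, came from an assembled transcript that shares a splice junction with the annotated one.

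*Upk1b* was lower, found in ND mice 2, 3 and 4 with 0.425, 1.95 and 6.43 FPKM, HFD mice 12, 15 and 18 with 0.274, 0.0948 and 0.0273, CLE mice 2, 4 and 11 with 0.612, 0.748 and 0.710, and LU mice 2, 3 and 8 with 1.55, 1.89 and 0.838. The ND and HFD groups did not overlap, although ND mouse 2 was close to HFD mouse 12. The log2 fold change was -1.48 ± 0.43 (SE, limma, adjusted p = 0.0138).

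*Msln* ran from 0.449 through 2.43 to 9.40 FPKM in ND mice 2, 3 and 4, and from 0.678 through 0.155 to a listed 0 in HFD mice 12, 15 and 18. It was found in CLE mice 2, 4 and 11 with 1.30, 0.670 and 1.08 FPKM, and LU mice 2, 3 and 8 with 1.71, 1.92 and 0.729. ND mouse 2 again lay below HFD mouse 12. The log2 fold change of HFD against ND was -1.58 ± 0.53 (SE, limma, adjusted p = 0.0276).

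*Wt1* varied least in proportion between mice. It was found in ND mice 2, 3 and 4 with 3.67, 4.49 and 5.13 FPKM, HFD mice 12, 15 and 18 with 2.96, 2.81 and 1.95, CLE mice 2, 4 and 11 with 2.85, 1.82 and 1.35, and LU mice 2, 3 and 8 with 3.66, 2.45 and 1.40. Each ND value was above each value of the other 3 groups, although LU mouse 2 (3.66 FPKM) was close to ND mouse 2 (3.67). The difference of HFD from ND, -0.61 ± 0.24 on the log2 scale, missed the threshold (limma, adjusted p = 0.0512).

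Among the keratins, *Krt19* was found in ND mice 2, 3 and 4 with 0.962, 1.25 and 5.33 FPKM, HFD mice 12, 15 and 18 with 0.449, 0.177 and 0.0214, CLE mice 2, 4 and 11 with 0.534, 0.315 and 0.593, and LU mice 2, 3 and 8 with 1.01, 1.11 and 2.24. Its ND and HFD groups did not overlap, and it fell by 1.34 ± 0.36 on the log2 scale in HFD (SE, limma, adjusted p = 0.00933). *Krt8* and *Krt18* followed another pattern. *Krt8* was found in ND mice 2, 3 and 4 with 2.13, 0.346 and 4.10 FPKM, HFD mice 12, 15 and 18 with 0.390, 0.604 and 0.0160, CLE mice 2, 4 and 11 with 0.124, 0.0588 and 0.222, and LU mice 2, 3 and 8 with 0.303, 0.478 and 4.78. *Krt18* measured 1.14, 0.443 and 2.07, then 0.205, 0.461 and 0.0205, then 0.107, 0.226 and 0.115, and then 0.234, 0.476 and 1.97 FPKM in the same order of mice. Both were high in ND mice 2 and 4 and LU mouse 8 and at most 0.604 FPKM in the other 9 libraries. The differences of HFD from ND were -1.08 ± 0.54 for *Krt8* (limma, adjusted p = 0.117) and -0.80 ± 0.32 for *Krt18* (adjusted p = 0.0523).

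**Figure D1:**
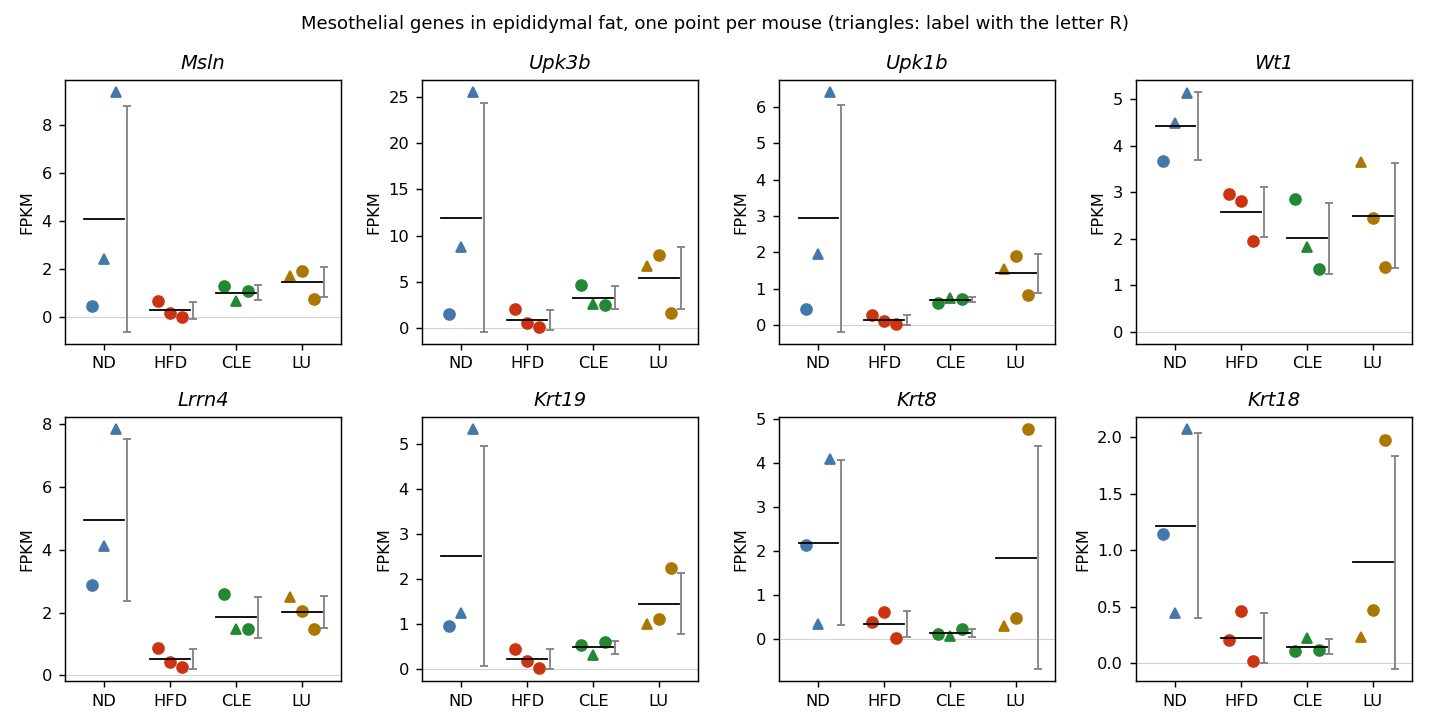
FPKM of the 8 genes in each of the 12 libraries, 1 point per mouse, with the group mean as a black line and the SD (n = 3) as a grey bar; triangles mark libraries whose label carries the letter R. ND mouse 4 is the highest point in 7 of the panels, and LU mouse 8 the highest for *Krt8*.

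The groups of ND and HFD did not overlap for 4 of the 8 genes, *Upk1b*, *Wt1*, *Lrrn4* and *Krt19*, each with HFD lower, as was so for 29.4% of all genes tested. With 3 mice per group the exact two-sided permutation test cannot go below p = 0.1, which these 4 reached. ND mouse 4 held the highest value of 7 genes and HFD mouse 18 the lowest of 7. Without ND mouse 4, without HFD mouse 15 or without HFD mouse 18, 3 genes were called instead of 5, since *Msln* (limma, adjusted p = 0.0693 to 0.0842) and *Upk3b* (0.0544 to 0.0776) then missed the threshold, and *Upk3b* missed it without ND mouse 3 as well (0.0505). Without LU mouse 8, which enters only through the shared spread, all 8 were called. Of the 12837 genes tested, 1392 were called lower in HFD in that fit. This number was 1381 without ND mouse 4, 1401 without HFD mouse 15 and 1387 without HFD mouse 18. At least 1 of *Wt1*, *Krt8* and *Krt18* were also called without ND mouse 3, CLE mouse 2, CLE mouse 11 or LU mouse 2. The CLE mice and LU mouse 2 likewise enter only through the shared spread.

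An unexplained letter R appears in the labels of 4 libraries, those of LU mouse 2, CLE mouse 4, ND mouse 3 and ND mouse 4, and of no HFD library. Their column headers also share an unexplained number that no other column used here carries. With the letter as a covariate, 2 genes were called in HFD against ND, *Lrrn4* (limma, adjusted p = 0.00143) and *Krt19* (0.0378). In that fit 1338 of the 12837 genes tested were called lower in HFD. Without those 4 libraries ND consists of mouse 2 alone, whose spread is then taken to be that of the other groups. The differences of HFD from ND were then -0.22 for *Msln* and -0.55 for *Upk3b* on the log2 scale.

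The next comparisons addressed whether the extract or luteolin changed these genes under HFD. *Lrrn4* rose in both. Its mean was 1.85 ± 0.647 FPKM in CLE and 2.01 ± 0.506 in LU (SD, n = 3), against 0.517 ± 0.314 in HFD. The log2 fold changes were 0.91 ± 0.27 in CLE (SE, limma, adjusted p = 0.0244) and 0.99 ± 0.27 in LU (adjusted p = 0.0197), and both comparisons use the same HFD mice. It was the 1 gene of 8 called in each, where 6.35% of all genes were called higher in CLE and 4.79% in LU.

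The other genes did not pass the test in either comparison. For *Upk3b* the log2 difference from HFD was 1.29 in CLE (95% interval -0.32 to 2.91) and 1.74 in LU (0.13 to 3.36), with limma adjusted p of 0.202 and 0.102. For *Upk1b* it was 0.58 in CLE (-0.36 to 1.53) and 1.08 in LU (0.13 to 2.02). For *Msln* it was 0.68 (-0.48 to 1.84) and 0.94 (-0.23 to 2.10). These intervals leave room for a rise of several fold as well as for little change. *Krt19* differed from HFD by 0.29 in CLE and 0.99 in LU, *Krt8* by -0.21 and 0.77, and *Krt18* by -0.08 and 0.53. *Wt1* had negative estimates in both, -0.27 in CLE (-0.79 to 0.25) and -0.07 in LU (-0.59 to 0.45).

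The values of *Upk3b*, *Upk1b* and *Lrrn4* in CLE did not overlap those in HFD, 3 of 8 genes, all higher in CLE, beside 24.3% of all genes. In LU this held for 4 genes, *Msln*, *Upk1b*, *Lrrn4* and *Krt19*, beside 25.6%. The median log2 difference from HFD was 0.44 in CLE and 0.97 in LU, against 0.01 and 0.03 over all genes tested. *Lrrn4* was no longer called in CLE without HFD mouse 15, HFD mouse 18 or CLE mouse 2 (limma, adjusted p = 0.0697, 0.0865 and 0.0932), nor in LU without HFD mouse 15, HFD mouse 18, LU mouse 2 or LU mouse 3 (0.0582 to 0.0739). Without ND mouse 2 the number called in LU was 4, and without ND mouse 4 it was 3. Of the 12837 genes tested, 635 and 621 were called higher in LU in these fits. The ND mice enter this comparison only through the shared spread.

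**Figure D2:**
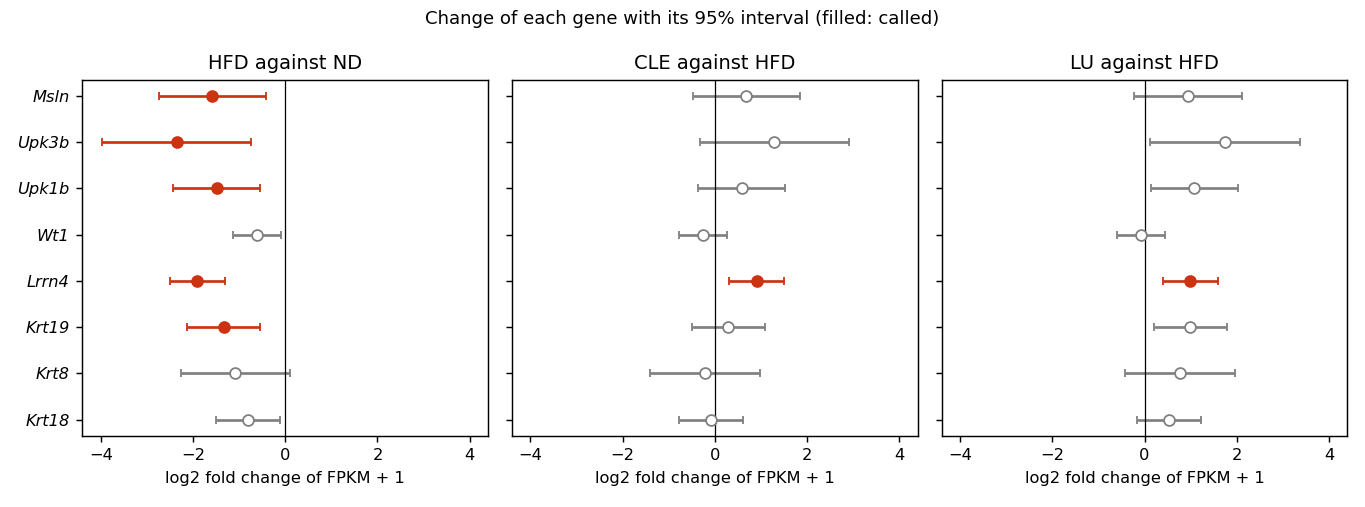
Log2 fold change of FPKM + 1 for each gene in HFD against ND, CLE against HFD and LU against HFD, with 95% intervals from limma; filled red points were called. All 8 points lie left of 0 in HFD against ND, and *Lrrn4* is the filled point in the other panels.

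Set against ND, both supplemented groups had lower estimates for all 8 genes. In CLE none was called at the adjusted threshold, beside 0.872% of all genes called lower, while 5 had an unadjusted limma p under 0.05, as did 23.3% of all genes. The largest log2 differences were -1.30 for *Krt8* (adjusted p = 0.178), -1.06 for *Upk3b* (0.419), and -1.04 for *Krt19* (0.111). The lowest adjusted p of the 8 was 0.0554 (limma), and *Lrrn4* missed the threshold as well (0.0564). The values of *Wt1*, *Lrrn4*, *Krt19*, *Krt8* and *Krt18* in CLE did not overlap those in ND, 5 of 8, beside 11.5% of all genes lower without overlap. *Lrrn4* and *Wt1* were called without CLE mouse 2 (limma, adjusted p = 0.0448 and 0.0329), and *Wt1* without LU mouse 2 or LU mouse 8 (0.0451 and 0.0329). The LU mice enter this comparison only through the shared spread.

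In LU, *Lrrn4* was called lower than in ND, by -0.91 ± 0.27 on the log2 scale (limma, adjusted p = 0.0497), beside 1.6% of all genes. This call stood at the threshold and was lost in 20 of 28 alternatives. With 1 library left out at a time, it held only without ND mouse 2 or CLE mouse 2, and the adjusted p reached 0.169 without LU mouse 8. *Wt1* differed by -0.68 ± 0.24 (adjusted p = 0.0869). These were the 2 genes without overlap between LU and ND, narrowly for *Wt1*, beside 11.6% of all genes. *Wt1* was called without LU mouse 2 (adjusted p = 0.0367).

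The extract was then compared with luteolin, which was given at another dose than the extract. CLE had lower estimates than LU for all 8 genes, and none was called. Over all genes, 0.00779% were called in limma. None of the 8 had an unadjusted p under 0.05 either, beside 5.21% of all genes. *Krt8* differed most, by -0.98 on the log2 scale (95% interval -2.16 to 0.21), and *Lrrn4* least, by -0.09 (-0.69 to 0.51). *Upk1b*, *Krt19*, *Krt8* and *Krt18* did not overlap, 4 of 8 genes, beside 6.29% of all genes lower in CLE without overlap. The highest CLE and lowest LU values were close for *Krt18* (0.226 and 0.234 FPKM), *Krt8* (0.222 and 0.303) and *Upk1b* (0.748 and 0.838). For *Krt19* they were 0.593 and 1.01 FPKM. These 4 genes reached 1 FPKM in no CLE library.

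The order of the group means was ND, LU, CLE and HFD, from highest to lowest, for *Msln*, *Upk3b*, *Upk1b*, *Lrrn4* and *Krt19*. Along this order neighbours overlapped at each step for *Msln*. They stood apart between CLE and HFD for *Upk3b*, between LU and CLE and between CLE and HFD for *Upk1b*, between ND and LU and between CLE and HFD for *Lrrn4*, and between LU and CLE for *Krt19*. *Krt8* and *Krt18* had CLE below HFD, with overlap at each step. *Wt1* ran from ND through HFD and LU to CLE, with ND apart from the rest, though only narrowly from LU.

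Across the 12 libraries the 8 genes fell into blocks. *Msln*, *Upk3b*, *Upk1b* and *Lrrn4* had Pearson's r of 0.88 to 0.97 with each other on the log2 scale, and 0.83 to 0.97 after the group means were taken out. These correlations describe 12 libraries that share diets, and ND mouse 4 is high and HFD mouse 18 low in each of the 4 genes. The level of *Upk3b* was 2.22 to 4.13 times that of *Msln* in the 11 libraries where *Msln* was above 0, and 1.93 to 7.62 times that of *Upk1b*. These genes therefore kept to a narrower range of ratios than of levels.

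*Krt8* and *Krt18* had r of 0.25 to 0.53 with those 4 genes, and -0.16 to 0.14 after the group means were taken out. The ratio of *Krt8* to *Upk3b* ran from 0.0224 in CLE mouse 4 to 2.95 in LU mouse 8, and the ratio of *Krt8* to *Krt18* from 0.26 to 2.42. *Krt19* stood between the blocks, with r of 0.76 to 0.87 with the first 4 genes and 0.81 to 0.84 with the keratins. *Wt1* had r of 0.19 to 0.67 with the other 7 genes.

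Genes of other epithelia were high in the libraries in which *Krt8* and *Krt18* were high. *Epcam*, which encodes an adhesion protein of epithelial cells that mesothelium lacks, stood at 1.14 FPKM in ND mouse 2, 0.802 in ND mouse 4 and 1.87 in LU mouse 8, and at most at 0.445 elsewhere. *Cldn7*, *Elf3* and *Prss8* were also highest in these 3 libraries. In LU mouse 8 the epididymal genes *Adam7* and *Spag11b* were at 2.08 and 2.34 FPKM, against at most 0.188 and 0.0291 elsewhere, and *Crisp1* was highest, at 5.13, in ND mouse 4.

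Over the whole lists, the 13 general epithelial genes summed to 1.21 to 4.61 FPKM in ND, 3.47 to 7.25 in HFD, 3.37 to 8.74 in CLE and 2.80 to 9.58 in LU. Of them 1 was tested, *St14*, which macrophages also express, and it rose in HFD (1.41 on the log2 scale, limma, adjusted p = 1.55e-05). Of 19 epididymal genes 18 were in the table, 7 of these were at 0 in all libraries, among them *Lcn5* and *Lcn10*, and 2 were tested. The list summed to 1.58 to 12.0 FPKM in ND, 6.70 to 14.9 in HFD, 1.34 to 2.90 in CLE and 2.22 to 21.1 in LU, most of it *Lcn2*, which neutrophils and fat also express and which fell in CLE against HFD (-1.81, limma, adjusted p = 0.0296). The part of these genes in the levels of *Krt8* and *Krt18* was not tested.

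Without ND mice 2 and 4 and LU mouse 8, an alternative chosen after the data were seen, the number of the 8 genes called was 5 in HFD against ND, 3 in CLE against HFD and 5 in LU against HFD. *Msln* and *Upk3b* were then called higher in both supplemented groups, with *Upk1b* and *Krt19* in LU. LU mouse 8 was the lowest LU mouse for *Msln*, *Upk3b* and *Upk1b*, so leaving it out raised their LU means by itself. For *Krt19* it was the highest. No CLE or HFD library was left out, so the calls of CLE against HFD changed only through the shared spread. The log2 differences of LU from HFD were 1.17 for *Msln*, 2.30 for *Upk3b*, 1.27 for *Upk1b* and 0.77 for *Krt19*. In this fit 6.5% of all genes were called higher in CLE and 5.41% in LU, and 10.3% lower in HFD against ND. ND then consists of mouse 3 alone, whose spread is taken to be that of the other groups.

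**Figure D3:**
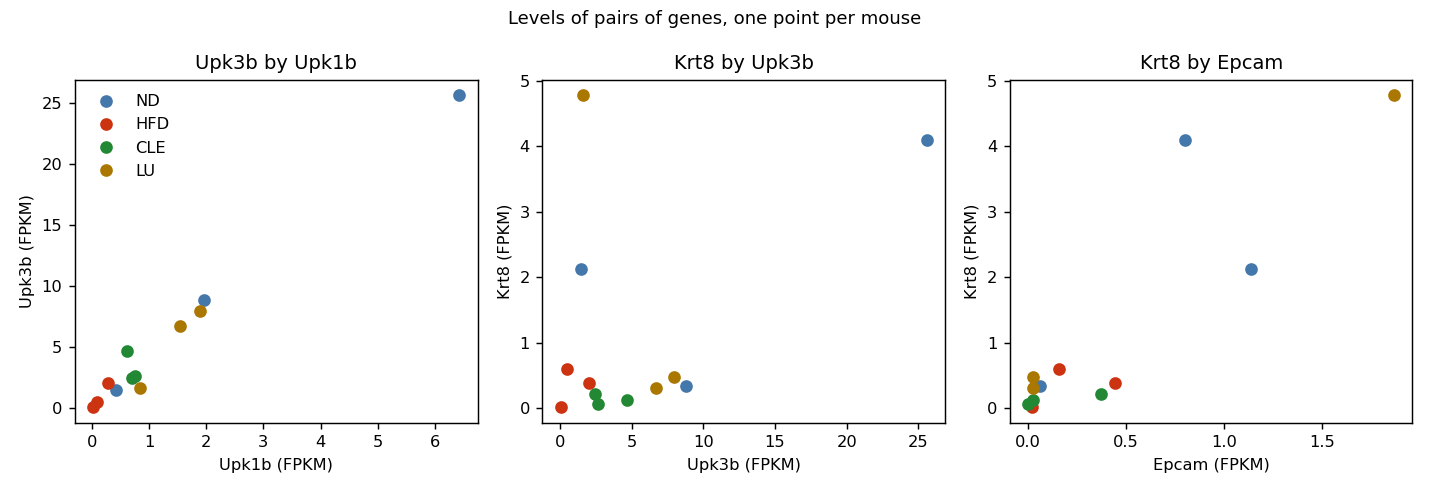
FPKM of *Upk3b* against *Upk1b*, *Krt8* against *Upk3b* and *Krt8* against *Epcam*, 1 point per mouse, coloured by group. The 3 libraries with the highest *Krt8* (4.78, 4.10 and 2.13 FPKM) are those with the highest *Epcam*, and LU mouse 8 has the highest *Krt8* with 1.62 FPKM of *Upk3b*.

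The uroplakins of the bladder lining did not accompany *Upk3b* and *Upk1b*. *Upk2* and *Upk3a* were listed at 0 in all 12 libraries and *Upk1a* was at most 0.271 FPKM, and none of the 4 other uroplakin genes was tested. Of the 10 urothelium genes 7 were under 1 FPKM in every library. The sums of that list, 27.3 in HFD mouse 12 and 34.3 in CLE mouse 11 against at most 1.75 elsewhere, came from *Krt5* (9.79 and 11.3 FPKM) and *Krt14* (16.8 and 21.7), keratins of skin. The 25 other keratin genes summed to 140.0 and 172.9 FPKM in the same 2 libraries and to 9.69 to 16.9 in the rest. Of the 5 keratins tested 1 was called, *Krt80*, which rose in HFD (0.96, limma, adjusted p = 1.90e-05). Without these 2 libraries, chosen after the data were seen, 5 of the 8 genes were called in HFD against ND and 1 in CLE and in LU against HFD. Of the 12837 genes tested in that fit, 1277 were called lower in HFD than in ND. Against HFD, 789 were called higher in CLE and 481 in LU. Genes of testis germ cells were not tested, and 8 of 9 were under 1 FPKM in every library.

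The longer list of 35 mesothelial genes gave a mixed picture. Of its 23 tested genes, 6 fell and 4 rose in HFD against ND, with a median log2 fold change of -0.25, where 10.8% of all genes were called lower and 14.9% higher. *Gpm6a*, which encodes a membrane glycoprotein, fell by 2.05 ± 0.45 and *Nkain4* by 1.66 ± 0.30 (SE, limma, adjusted p = 0.00284 and 0.000742). *Aldh1a2*, which encodes an enzyme of retinoic acid synthesis, rose by 1.42 ± 0.15 and *Fgf1*, which encodes a fibroblast growth factor, by 1.36 ± 0.28 (adjusted p = 2.19e-05 and 0.00208). Both of the last are expressed in other cells of the fat pad as well.

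*Nkain4* moved much as the first block did. It was found in ND mice 2, 3 and 4 with 2.30, 3.35 and 8.71 FPKM, HFD mice 12, 15 and 18 with 0.749, 0.726 and 0.471, CLE mice 2, 4 and 11 with 1.34, 1.57 and 1.08, and LU mice 2, 3 and 8 with 2.78, 2.38 and 2.06. The HFD values lay below those of each other group without overlap. It rose in LU against HFD (1.04 ± 0.30, adjusted p = 0.0228) and stayed lower in CLE than in ND (-1.16 ± 0.30, adjusted p = 0.0465).

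Against HFD, 3 genes of the longer list rose and 4 fell in CLE, and 5 rose and 2 fell in LU. Of all genes tested, 10.2% were called lower in CLE and 7.64% in LU. *Podxl*, which encodes a sialomucin of mesothelium, podocytes and vessels, rose in both (1.26 and 1.06 on the log2 scale, limma, adjusted p = 0.00149 and 0.00583). In CLE, *Cldn15*, a claudin of mesothelium and gut, rose (0.75), while *Aldh1a2* fell (3.71 to 5.45 FPKM in CLE, 8.90 to 11.05 in HFD), as did *Fgf1* (-0.86). In LU, *Tm4sf1* rose (0.78) and *Anxa8* fell (-0.89). *Cldn15* lay at 23.8 to 51.5 FPKM per library, highest in CLE mouse 11, and *Tm4sf1* at 18.5 to 40.8 FPKM. Which cells of the pad expressed these 2 genes was not tested. The medians of the longer list were 0.05 in CLE and 0.12 in LU. Against ND, 1 gene was higher (*Hspg2*) and 2 were lower (*Nkain4*, *Rspo1*) in CLE, 1 was higher in LU (*Aldh1a2*), and none was called between CLE and LU. Of all genes, 2.1% were called higher in CLE and 4.96% in LU than in ND.

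Transcription factors used by mesothelial and related mesenchymal cells were considered next. Of 14 such genes 9 were tested, and in HFD against ND 3 fell and none rose: *Gata6* (-1.18 ± 0.19), *Meis1* (-1.16 ± 0.11) and *Nr2f2* (-0.98 ± 0.17), with limma adjusted p of 0.000347, 6.60e-06 and 0.000516. In CLE against HFD the same 3 rose (0.97, 0.67 and 0.69), with *Tead1* (0.64), and in LU *Gata6* (0.67) and *Nr2f2* (0.64) rose. These genes are active in fat progenitors and vessels too. *Gata6* was found in ND mice 2, 3 and 4 with 10.05, 7.40 and 8.02 FPKM and HFD mice 12, 15 and 18 with 3.43, 3.59 and 2.54, so it was not highest in ND mouse 4 as the genes of the first block were.

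Of 17 genes of the mesothelial to mesenchymal transition, 5 rose and 1 fell in HFD against ND. The 4 with the largest changes were *Fn1* (1.53 ± 0.17), *Tgfb1* (1.36 ± 0.15), *Tgfbr1* (1.19 ± 0.14) and *Vim* (0.71 ± 0.13), which encode fibronectin, TGF-beta 1, a TGF-beta receptor and vimentin (limma, adjusted p = 2.68e-05, 2.08e-05, 3.30e-05 and 0.000840). *Fn1*, *Tgfb1* and *Tgfbr1* fell in CLE against HFD (-1.11, -0.93 and -1.02) and in LU against HFD (-0.89, -0.67 and -0.98). In all, 4 fell and 3 rose in CLE, and 4 fell and 1 rose in LU, and *Acta2* of smooth muscle rose in both (0.88 and 0.96). Macrophages and fibroblasts also express these genes.

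Of 22 genes of keratin anchorage and junctions 13 were tested, of which 4 fell and 3 rose in HFD against ND. *Ppl* fell by 0.96 ± 0.22 and *Pkp4* by 0.76 ± 0.16, whereas *Plec* rose by 0.77 ± 0.16 (limma, adjusted p = 0.00411, 0.00208 and 0.00230). *Pkp4*, *Jup* and *Pkp2* rose in CLE (1.26, 0.81 and 0.69), and *Pkp4*, *Jup* and *Tjp1* in LU (0.89, 0.70 and 0.60). *Jup*, which encodes plakoglobin, lay at 76.3 to 146.1 FPKM, above the 3 simple keratins in every library, and is expressed by many cell types.

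Marker genes of the cell types around the mesothelium differed between groups in the same libraries. Of 10 adipocyte genes 8 fell and 1, *Lep*, rose in HFD against ND (median -0.84), and 9 of 10 macrophage genes rose (median 2.47). Of 8 endothelial genes 2 fell (median -0.51), of 5 smooth muscle genes tested 2 fell (median -0.61), and of 10 progenitor genes 2 rose and 1 fell (median 0.35). Against HFD, 8 adipocyte genes rose in CLE and 4 in LU, 9 macrophage genes fell in each, and 4 endothelial genes rose in CLE and 5 in LU. In a list of liver genes, *Hp* lay at 888 to 5350 FPKM per library and *Alb* at 0.973 to 19.8 FPKM. Of 7 genes of that list tested, *Hp* rose and *Alb* fell in HFD against ND (2.11 and -2.23, limma, adjusted p = 5.88e-05 and 0.000414). The 8 mesothelial genes had a median of -1.41 in the same comparison. The part of cell composition in these values was not tested.

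**Figure D4:**
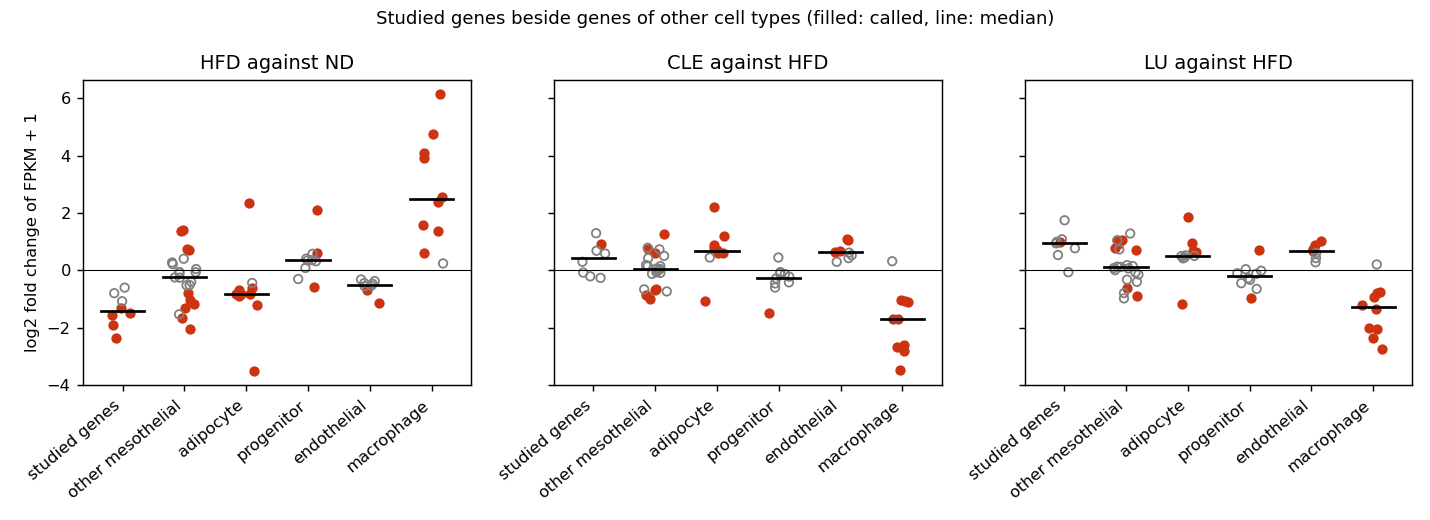
Log2 fold change of FPKM + 1 of the 8 genes (left column of each panel) and of lists of other genes, for HFD against ND, CLE against HFD and LU against HFD; filled points were called and black lines are medians. In HFD against ND the medians are -1.41 for the 8 genes, -0.25 for other mesothelial genes, -0.84 for adipocyte genes and 2.47 for macrophage genes.

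The genes most like the 8 were sought over the 12 libraries by Pearson's r with their mean standardised level, among 12829 other tested genes. The 10 highest were *Nkain4* (r = 0.97), *Rspo1* (0.97), *Camta1* (0.95), *Sirt5* (0.93), *Stk26* (0.91), *Wnt2b* (0.90), *Slpi* (0.90), *Gpm6a* (0.90), *Slc39a8* (0.89) and *Spock2* (0.89). Each was highest in ND mouse 4, and 5 of them, *Nkain4*, *Rspo1*, *Slpi*, *Gpm6a* and *Slc39a8*, were on the longer mesothelial list. *Rspo1* encodes a secreted enhancer of WNT signalling and *Wnt2b* a WNT ligand. With the group means taken out, the 10 highest were *Slpi* (0.96), *Itga1* (0.95), *Nkain4* (0.93), *Akr1c14* (0.91), *Sync* (0.91), *Pdpn* (0.90), *Rspo1* (0.90), *Prex2* (0.90), *H2-T24* (0.89) and *Camta1* (0.89). The lists shared *Nkain4*, *Rspo1*, *Camta1* and *Slpi*, 4 of the 10 genes of each.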

How the data were processed

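mRNA of eWAT was sequenced by the authors from TruSeq libraries. The submitters' processing notes name CASAVA 1.8.2, Bowtie2 2.2.3, TopHat2 2.0.12 and Cufflinks 2.2.1, and the genome build is not given in the sources used here. The authors deposited FPKM values for 152210 annotated or assembled transcripts. Left unused were 3 of the 15 FPKM columns, which fit no sample's label, and the authors' own calls of changed transcripts. Columns headed CLL were matched to CLE through the sample titles. The column headed MD4 was taken as ND mouse 4, since a comparison header lists it with the ND columns.

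Transcripts of Ensembl, or assembled with class code = or j, were summed per gene. Of 78786 annotated transcripts, 76916 were found in GENCODE (GRCm38), 87.6% with the same start and end. All 12 libraries entered 1 fit of log2(FPKM + 1) in limma 3.58.1 (R 4.3.3), with Benjamini-Hochberg adjustment over all tested genes. The study's own test needs counts and was not repeated. Promoters were from RefSeq. Tables were made with Python 3.11.15 and pandas 2.3.3.

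The 8 genes, the 16 other lists and the tests were chosen with earlier results of these data known. All 8 genes are named, with at most 4 called genes per list and comparison by size of change, and the 10 genes most like the 8. Markers of other epithelia, and genes named from counts of 5 or fewer, were named after their values were seen. Values of 1 gene are not reported here.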

Additional observations from a re-analysis of the deposited data

How the results depend on the processing

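The 8 genes were lower in HFD than in ND in all 216 values from alternatives that tested them. The count of 5 genes called lower became 1 with a filter on a mean of 5 FPKM, which tested *Upk3b* only of the 8, 8 with array weights, 3 without transcripts of class code j, which left *Upk3b* untested, 2 with the letter R as a covariate and 1 without its libraries. It was 3 to 8 when each library was left out in turn, 3 without ND mouse 4, HFD mouse 15 or HFD mouse 18 and 8 without LU mouse 8. Of the 12837 genes tested, 1276 to 1500 were called lower in HFD with libraries left out, and 1406 with array weights. In CLE against HFD the count of 1 became 0 with no filter, with the mean filter, with the highest transcript in place of the sum and without class code j, and 3 with only these 2 groups or without the 3 libraries highest in *Epcam*. It was 0 to 1 with libraries left out. In LU against HFD the count of 1 became 0 with the mean filter and without class code j, 3 with a pseudocount of 0.1 or without the letter R libraries, 4 with array weights, and 5 with only these 2 groups or without the 3 *Epcam* libraries. It was 0 to 4 with libraries left out. Among all genes, 465 to 635 were called higher in LU than in HFD with libraries left out. This number was 833 with a pseudocount of 0.1, 668 with array weights and 656 with only these 2 groups. In CLE against HFD, 661 to 904 of all genes were called higher with libraries left out, and 816 with only those 2 groups. In CLE against ND the count of 0 became 1 with array weights or without the *Epcam* libraries, and was 0 to 2 with libraries left out. In LU against ND the count of 1 became 0 with a pseudocount of 0.1, no filter, the mean filter, 2 groups only, the highest transcript, no class code j, the letter R as a covariate or left out, the replicate block, and without the *Epcam* or the skin keratin libraries. It was 0 to 1 with libraries left out. In CLE against LU it was 0 throughout. With libraries left out, 37 to 131 of all genes were called lower in CLE than in ND, and 127 to 233 in LU.

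The estimate of *Wt1* in LU against HFD turned positive without the *Epcam* libraries (0.18) and without the skin keratin libraries (0.011), and ran from -0.30 to 0.18 with libraries left out. That of *Krt18* in CLE against HFD ran from -0.21 to 0.050. Both were uncalled in each of these fits. The cause of these changes was not tested. Mouse numbers name separate animals. Their deviations from the group means had r of -0.099 to 0.19 over 5 same-numbered pairs, so the numbers were not taken as a pairing. With the replicate block, which HFD could not enter, 0 genes were called in CLE against ND, LU against ND and CLE against LU. The unknown depth limits statements on genes under about 1 FPKM.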
